A study of Homo sapiens with 2 samples.

Results

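The genes described here are TIMP1, TIMP2, TIMP3 and TIMP4, which encode the tissue inhibitors of metalloproteinases, and RECK, which encodes a membrane-anchored inhibitor of the same enzymes. They were chosen by name, are 5 of the 36601 genes in the deposited count tables, and each was found once under its own symbol. HT1080, an established human fibrosarcoma line that the labels give as wildtype, was embedded as spheroids in collagen and left to invade for 72 h. The control culture was compared with a culture that received 2 µg/ml of 4B4, an antibody that blocks β1 integrin, and each culture gave 1 single-cell library of pooled spheroids. No other antibody is named for the control, so blocking cannot be told apart from adding an antibody, and with 1 library per group there is no replicate check and no test. Levels are unique molecular identifiers (UMIs) of a gene summed over cells per 1000000 UMIs of those cells (UPM), and the ranges in brackets are exact 95% intervals for the counting error alone. They leave out the spread between cells and between cultures.

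TIMPs are small secreted proteins that fit into the active site of matrix metalloproteinases and block it, and RECK, tethered to the membrane by a lipid anchor, restrains several of the same enzymes at the cell surface. The family has more than one role: TIMP2 also bridges the membrane collagenase MMP14 to the precursor of MMP2 and so takes part in its activation, TIMP3 binds to the matrix and inhibits sheddases of the ADAM group, and TIMP1 also signals through the tetraspanin CD63. HT1080 cells are much used to study collagen invasion that depends on MMP14.

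On the GRCh38 build, with positions of GENCODE release 29, TIMP1 (ENSG00000102265) occupies 47582313 to 47586789 of chromosome X, inside the span of the neuronal gene SYN1 on the opposite strand. TIMP3 (ENSG00000100234), on chromosome 22 from 32801701 to 32863043, lies in the same way inside SYN3, and TIMP4 (ENSG00000157150), on chromosome 3 from 12153051 to 12159351, inside SYN2. TIMP2 (ENSG00000035862) lies on chromosome 17 from 78852977 to 78925387 and holds the gene CEP295NL on its own strand. RECK (ENSG00000122707) lies on chromosome 9 from 36036433 to 36124451. TIMP1 and TIMP4 are compact, with spans of 4.48 and 6.30 kb, whereas TIMP3, TIMP2 and RECK span 61.3, 72.4 and 88.0 kb. The counts are per gene and do not tell exons, introns or untranslated regions apart.

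Short stretches before the RefSeq transcription starts show how the members differ there in the letters that factors of the AP-1, ETS and Sp1 families are known to bind. The 250 bases before the start were searched on both strands for TGANTCA (AP-1), TGAGTAA (an AP-1 variant), AGGAAG (ETS), GGGCGG (the GC box of Sp1) and TATAAA, and the 30 bases with the most matches are printed for the 4 members in the table, with matches in capitals.
TIMP1, chrX:47582330-47582359, plus strand: gtggaTGAGTAAtgcatccAGGAAGcctgg
TIMP3, chr22:32801531-32801560, plus strand: cgatccggGGGCGGccCCGCCCcgttaccc
TIMP4, chr3:12158961-12158990, minus strand: aaAGGAAGgcggagcccgtcgGGGCGGgat
RECK, chr9:36036883-36036912, plus strand: caaagggccgggcgctggGGGCGGggcctc
These RefSeq sequences are on GRCh38.p14. The TIMP1, TIMP4 and RECK stretches lie inside the GENCODE spans given above, which begin farther upstream than the RefSeq starts, and the TIMP3 stretch lies before its span. Among the 4, the AP-1 variant was found before TIMP1 alone, 101 to 95 bases before its start, with the ETS letters 87 to 82 bases before it. That variant occurs in 2.21% of the 35116 promoters searched, the ETS letters in 28.7% and the GC box in 42.6%. TIMP1 also held 2 GC boxes, TIMP3 held 5, RECK 3 and TIMP4 1, and no member held TGANTCA (6.57% of promoters) or TATAAA (10.7%). The TIMP3 window held 26 CpG pairs, against a median of 11 over all promoters and 11 or 12 in the other members. A match describes letters, not binding.

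The libraries differed in depth and in the share of cells called cycling. After barcodes with under 1000 detected genes or over 20% mitochondrial UMIs were left out, 3402 control cells and 1385 4B4 cells with 127218114 and 116451080 UMIs were compared, with medians of 32914 and 68556 UMIs per cell. At an equal depth of 17000 UMIs, 33.2% of 3099 control cells and 12.8% of 1311 4B4 cells were called cycling (S or G2M) from phase scores alone. The cells carried their label's markers: all 8 mesenchymal markers were above 5 UPM in either library, while KRT5, MS4A1 and HBA2 had no UMI and CDH1 was at 0.00786 and 0.0601 UPM in the control and 4B4 library. Markers summed to 13.9 and 15.9 UPM for 7 epithelial genes, 33.1 and 48.1 for 5 endothelial genes, 20.4 and 27.5 for 4 of pericytes and smooth muscle, 6.73 and 5.33 for 6 lymphoid genes, and 12.3 and 45.0 for 6 myeloid genes. Single genes carried most of these sums: CLDN4 (11.2 and 13.8 UPM) the epithelial, PECAM1 (30.3 and 45.8) the endothelial, DES (7.67 and 11.8) with NOTCH3 (7.40 and 11.2) the pericyte and muscle, and S100A9 (6.84 and 37.0) the 4B4 myeloid sum. PECAM1, DES, NOTCH3, S100A9 and the myeloid gene CSF1R (4.01 and 6.05 UPM) were at least 1.5-fold higher in the 4B4 library, and the part of these sums in the results below was not tested.

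TIMP1, a soluble inhibitor, made up nearly all transcripts of the family and was the member with the largest difference between the libraries. Control cells held 236726 TIMP1 UMIs, or 1861 UPM (1853 to 1868), and 4B4 cells 486352, or 4176 UPM (4165 to 4188). The 4B4 level was thus 2.24-fold higher, a log2 ratio of 1.17 (1.16 to 1.17). Of the 11359 genes that reached 5 UPM in at least 1 library, 2.1% were at least 1.5-fold higher in the 4B4 library with an interval on the same side of 1, and TIMP1 was the only member among them. Another 5.82% of genes were lower by that bound, and no member was. Only 25 genes had a larger ratio than TIMP1, and the median log2 ratio of all measured genes was -0.0089. By level TIMP1 moved from place 79 to place 21 among all genes, and it took 93.3% of the family's UMIs in the control and 96.6% in the 4B4 library.

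TIMP2, the inhibitor that also helps MMP14 to activate MMP2, was at 115.6 UPM (113.7 to 117.5) in the control and 129.3 (127.2 to 131.4) in the 4B4 library. The intervals do not overlap, yet the difference was small, with a log2 ratio of 0.16 (0.13 to 0.19), and 22.4% of measured genes had a higher ratio. RECK was at 17.8 UPM (17.1 to 18.5) in the control and 15.2 (14.5 to 15.9) under 4B4, with a log2 ratio of -0.23 (-0.32 to -0.14). RECK was therefore the member with the lower 4B4 level, short of the 1.5-fold bound. Its ratio shrank to -0.07 (-0.25 to 0.10) when every cell was thinned to 17000 UMIs, an interval that includes 0. Over cells of 20000 to 60000 UMIs it was -0.32 (-0.50 to -0.14), and with each cell weighing the same it was -0.25.

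TIMP3 and TIMP4 were close to absent at this depth. TIMP3, the matrix-bound inhibitor, had 16 UMIs in 6 control cells, 9 of them in 1 cell, and 24 UMIs in 20 4B4 cells, or 0.126 UPM (0.0719 to 0.204) and 0.206 UPM (0.132 to 0.307). TIMP4, best known from heart and muscle, had 72 UMIs in 69 control cells and 85 in 72 4B4 cells, or 0.566 UPM (0.443 to 0.713) and 0.730 UPM (0.583 to 0.903). Both lie below the 5 UPM used as a floor, and over all kept cells the log2 ratios of 0.71 (-0.26 to 1.72) and 0.37 (-0.10 to 0.84) had intervals that include 0. Some other selections of cells gave intervals above 0. Among them were non-cycling cells for TIMP3 (1.33, 0.06 to 2.79, from 7 and 23 UMIs) and cycling cells for TIMP4 (1.38, 0.40 to 2.34, from 21 and 19 UMIs). With each cell weighing the same, both ratios were below 0, at -0.88 and -0.25. More 4B4 than control cells held a TIMP4 UMI, 5.20% against 2.03%, but at 17000 UMIs per cell the shares were 0.763% (0.366% to 1.40%) and 0.742% (0.471% to 1.11%). For TIMP3 the shares of kept 4B4 and control cells, at unequal depth, were 1.44% (0.884% to 2.22%) and 0.176% (0.0648% to 0.383%). Its log2 ratio at 17000 UMIs per cell was 2.83 (0.34 to 6.17), unlike TIMP4 at 0.18 (-1.01 to 1.27). The control cell with 9 TIMP3 UMIs held under 17000 UMIs in total, so thinning left it out. The deeper control cells had 7 TIMP3 UMIs before thinning, so this ratio rests on very few UMIs. The order of levels was TIMP1, TIMP2, RECK, TIMP4 and TIMP3 in both libraries, and no neighbouring intervals overlapped within a library. A culture of 1 line offers no cells that should lack these genes, so the part of free RNA in such few UMIs was not measured.

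**Figure D1:**
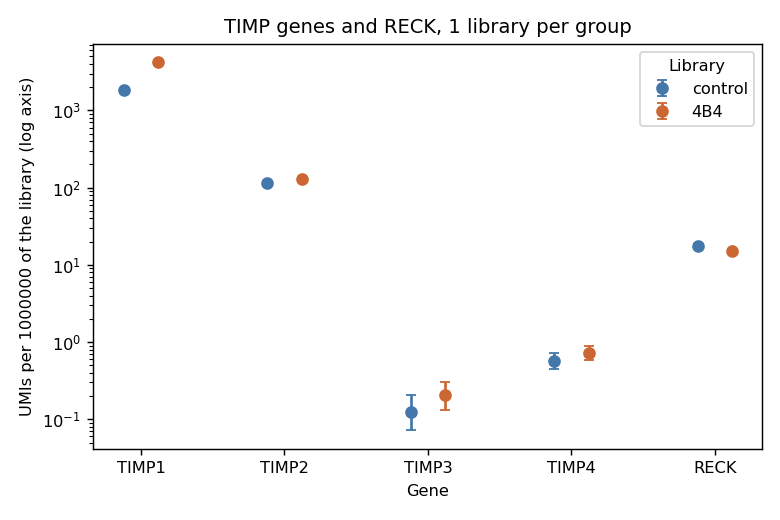
Level of each member in the control (blue) and 4B4 (orange) library, in UMIs per 1000000 on a log axis, with exact 95% counting intervals as bars where they exceed the point. TIMP1 stands at 1861 and 4176, TIMP2 at 115.6 and 129.3, RECK at 17.8 and 15.2, and TIMP3 and TIMP4 below 1.

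Over single cells, TIMP1 was found nearly everywhere, and each percentile from the 10th to the 90th given here was higher in the 4B4 library. At 17000 UMIs per cell, 99.7% of control cells and 99.3% of 4B4 cells held at least 1 TIMP1 UMI, with medians of 19 and 45 and highest cells of 524 and 948; the lowest cells of both had 0. The 10th percentiles were 6 and 11 UMIs, the lower quartiles 10 and 23, the upper quartiles 36 and 96 and the 90th percentiles 70 and 181. The ratio of the libraries was thus 1.83 at the 10th percentile, 2.30 at the lower quartile, 2.37 at the median, 2.67 at the upper quartile and 2.59 at the 90th percentile. Among all pairs of a control cell and a 4B4 cell, the 4B4 cell held more TIMP1 in 71.5% and less in 27.5%. The distributions overlapped: 18.2% of control cells lay above the 4B4 median. The part of free RNA in the TIMP1 counts of single cells was not measured.

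**Figure D2:**
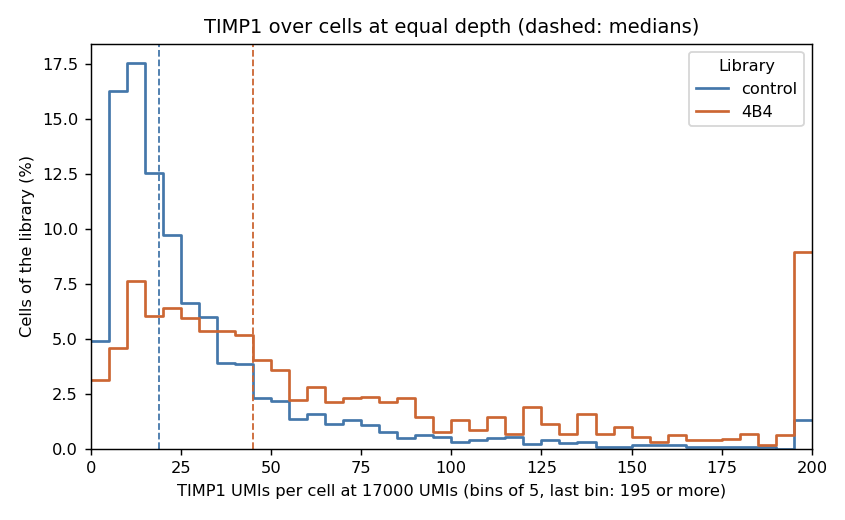
Share of cells (percent of the library) by TIMP1 UMIs per cell after thinning to 17000 UMIs, in bins of 5, with the last bin holding cells of 195 or more and dashed lines at the medians of 19 (control, blue) and 45 (4B4, orange). The last bin holds 40 control cells and 117 4B4 cells.

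TIMP1 varied widely between cells of the same library. The coefficient of variation at equal depth was 1.30 in the control and 1.26 in the 4B4 library, and the 10% of cells with the most TIMP1 held 39.9% and 39.4% of its UMIs. The variance was 53.9 and 124 times the mean, where sampling alone gives about 1. TIMP2 was far more even, with ratios of variance to mean of 1.18 and 1.31, a median of 2 UMIs in both libraries and 83.3% and 86.7% of cells with a UMI. RECK, with ratios of 1.04 and 1.13, was detected in 25.6% (24.03% to 27.1%) of control cells and 24.3% (22.0% to 26.7%) of 4B4 cells at that depth. These shares are near the 26.1% and 24.99% that a Poisson draw from the mean would give, so the spread of RECK over cells could not be read at this depth. Without thinning, RECK was found in 43.9% and 58.8% of cells.

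Depth moved with the library, and the TIMP1 difference was compared within ranges of depth. In cells of 20000 to 40000, 40000 to 60000, 60000 to 80000 and at least 80000 UMIs, TIMP1 was 2.89-, 2.93-, 2.58- and 2.30-fold higher in the 4B4 library. In cells below 20000 UMIs the control level was the higher one, at 2229 UPM against 1971 UPM, a ratio of 0.884. That range held 533 control cells with a median of 16484 UMIs and 84 4B4 cells with a median of 6864, so its cells were not alike in depth. Within 5 ranges of mitochondrial share the TIMP1 ratio over non-cycling cells ran from 1.45 to 2.16, and it was lowest in cells under 5% mitochondrial UMIs, where the control level was 3226 UPM and the 4B4 level 4672 UPM. Barcodes that failed the cell filter, with median mitochondrial shares of 92.4% and 82.7%, held 671 UPM of TIMP1 in the control and 357 UPM in the 4B4 library, below the kept cells of both. Mitochondrial UMIs count in these totals and lower the share of every other gene. The TIMP1 level over the other UMIs of these barcodes was not measured.

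TIMP1 was lower in cycling than in non-cycling cells. In the control library it was at 2106 UPM (2096 to 2117) in 2070 non-cycling cells, 1386 UPM in 397 S cells and 1455 UPM in 632 G2M cells. In the 4B4 library it was at 4269 UPM (4256 to 4282) in 1143 non-cycling cells, 3274 UPM in 77 S cells and 3940 UPM in 91 G2M cells. The log2 ratio of all cycling to non-cycling cells was -0.56 (-0.57 to -0.54) in the control and -0.21 (-0.22 to -0.20) in the 4B4 library. The 4B4 value depended on depth: it was -0.67 over cells of 20000 to 60000 UMIs, where the control gave -0.59, and -0.44 when each cell weighed the same. Medians at equal depth were 15 and 21 UMIs in cycling and non-cycling control cells, and 35 and 47 in 4B4 cells.

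S cells of the control, at a log2 ratio of -0.60 to non-cycling cells, were the cycling class in which TIMP1 passed the 1.5-fold bound; 5.23% of genes were lower by that bound in the same comparison. Over cells of 20000 to 60000 UMIs, or with each cell weighing the same, it was -0.55 and -0.58, short of the bound. TIMP2 hardly differed by phase, with log2 ratios of cycling to non-cycling cells of -0.06 in the control and -0.0026 in the 4B4 library. RECK went the other way from TIMP1, at 20.2 UPM in cycling and 16.2 UPM in non-cycling control cells and 18.6 and 14.6 UPM in 4B4 cells. Its log2 ratios of 0.32 (0.19 to 0.44) and 0.34 (0.16 to 0.52) were alike in size and below the bound. TIMP3 had no UMI in the 1029 cycling control cells, for which a floor of 3 UMIs corresponds to 0.0631 UPM and the exact interval reaches 0.0776 UPM, and 1 UMI in the 168 cycling 4B4 cells.

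Since fewer 4B4 cells were called cycling, the libraries were also compared class by class. TIMP1 was 2.03-fold higher among non-cycling 4B4 cells (1.57% of genes were higher by the 1.5-fold bound), 2.36-fold among S cells (4.3%) and 2.71-fold among G2M cells (4.42%). Its ratio was again near the top of all genes: 31 of 11181 genes had a larger one among non-cycling cells, 51 of 11406 among S cells and 29 of 11452 among G2M cells. TIMP2 ratios stayed between 0.14 and 0.21 on the log2 scale in these 3 classes. RECK ratios were -0.15 (-0.26 to -0.04) in non-cycling, -0.03 (-0.34 to 0.28) in S and -0.17 (-0.41 to 0.07) in G2M cells. Whether the TIMP1 ratios differ between the classes was not tested.

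Cells also differ in the share of UMIs taken by MALAT1, a long RNA kept in the nucleus, so non-cycling cells of each library were split into terciles of that share. The tercile bounds were 5305 and 19808 UPM of MALAT1 in the control and 1100 and 17986 UPM in the 4B4 library; they cut a continuous range, with 50 and 141 control cells and 24 and 62 4B4 cells within 10% of them. TIMP1 was at 2547 UPM in MALAT1-low, 1958 in MALAT1-mid and 1773 in MALAT1-high control cells. In 4B4 cells the levels were 5678, 3826 and 3189 UPM. TIMP1 thus stepped down from tercile to tercile in both libraries, with log2 ratios of high to low cells of -0.52 (-0.54 to -0.51) and -0.83 (-0.84 to -0.82).

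This split moved most of the transcriptome, so each member has to be read against the median gene, which was at 0.42 in the control and 0.62 in the 4B4 library. In the control 43.6% of genes were at least 1.5-fold higher in MALAT1-high cells and 7.34% lower, and in the 4B4 library 50.9% and 15.7%. RECK passed the bound upward in both, at 12.5 and 18.8 UPM in MALAT1-low and MALAT1-high control cells and 9.79 and 20.8 UPM in 4B4 cells. Its log2 ratios of 0.59 (0.38 to 0.79) and 1.09 (0.89 to 1.29) lie above those of the median gene, and the control value sits at the 1.5-fold bound itself and short of it, at 0.54, over cells of 20000 to 60000 UMIs. TIMP1 passed it downward in the 4B4 library, where 93.6% of genes had a higher ratio. TIMP2 stood between, at 0.06 (-0.02 to 0.13) and 0.27 (0.20 to 0.33), below the median gene in both libraries.

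Across all genes this ratio moved with gene length. Genes with a span under 10 kb had a median log2 ratio of MALAT1-high to MALAT1-low cells of -0.41 in the control and -0.60 in the 4B4 library, and genes of 50 kb or more 1.09 and 1.61. TIMP1, at 4.48 kb, had -0.52 and -0.83, close to other short genes, while RECK (88.0 kb) and TIMP2 (72.4 kb) lay below the median of long genes. Genes with over 1000 UPM, as TIMP1 has, had medians of -0.51 and -0.68. MALAT1-low cells also had fewer detected genes than MALAT1-high cells, with medians of 5745 and 6485.5 in the control and 7440 and 8802 in the 4B4 library. The part of gene length, of level and of these differences in RNA content in the TIMP1 pattern was not tested.

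**Figure D3:**
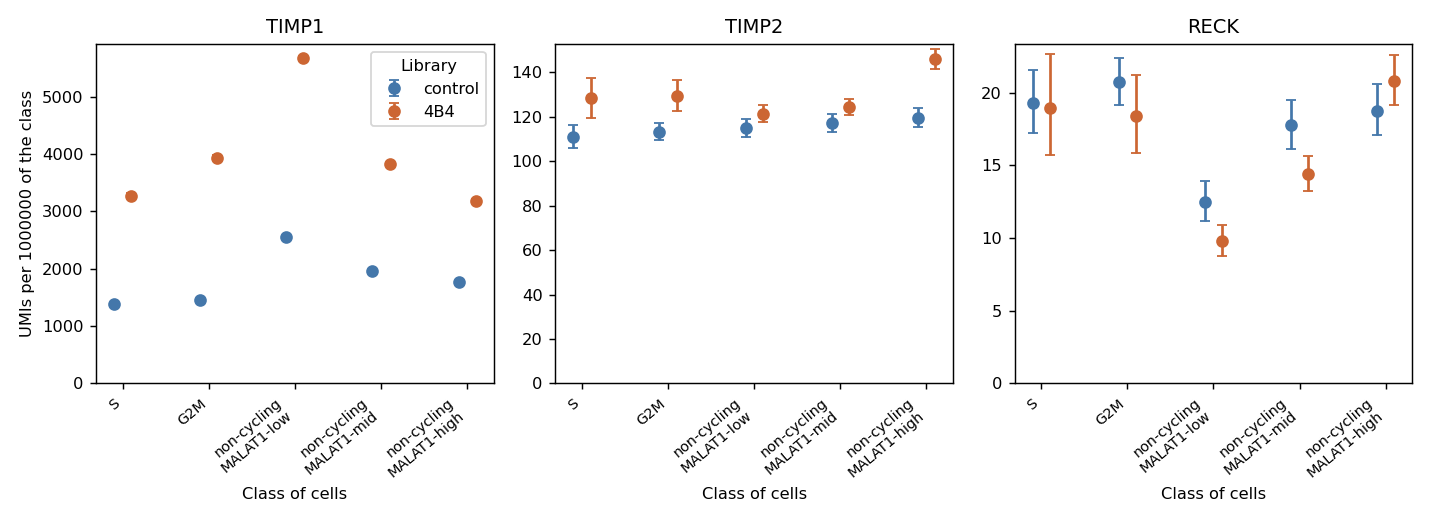
Levels of TIMP1, TIMP2 and RECK in S, G2M and the 3 MALAT1 terciles of non-cycling cells, in UMIs per 1000000 of the class, for the control (blue) and 4B4 (orange) library; bars are exact 95% counting intervals. TIMP1 is higher in the 4B4 library in all 5 classes and lowest in S cells of the control at 1386, TIMP2 runs from 110.9 to 145.9, and RECK runs from 9.79 to 20.8.

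TIMP1 was past the 1.5-fold bound between the libraries in every MALAT1 tercile. It was 2.23-fold in MALAT1-low cells (1.88% of genes were higher by the 1.5-fold bound), 1.95-fold in MALAT1-mid (2.59%) and 1.80-fold in MALAT1-high cells (3.81%). Because the terciles differ between the libraries, 6 fixed ranges of MALAT1 share were compared too, chosen after the data had been seen. From the lowest to the highest range the ratios were 2.35, 1.56, 2.08, 1.75, 1.99 and 1.52, with no steady order. The control levels over these ranges were 2905, 3079, 2262, 2067, 1740 and 1900 UPM, so they did not fall at either end, whereas the 4B4 levels of 6840, 4809, 4693, 3609, 3457 and 2891 UPM were lower at each step. RECK was lower in 4B4 cells of the low tercile, with a log2 ratio of -0.35 (-0.58 to -0.13), and at 0.15 (-0.03 to 0.33) in the high tercile. TIMP2 had 0.08 (0.01 to 0.15) and 0.29 (0.22 to 0.36), against medians of all genes of -0.03 and 0.11.

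**Figure D4:**
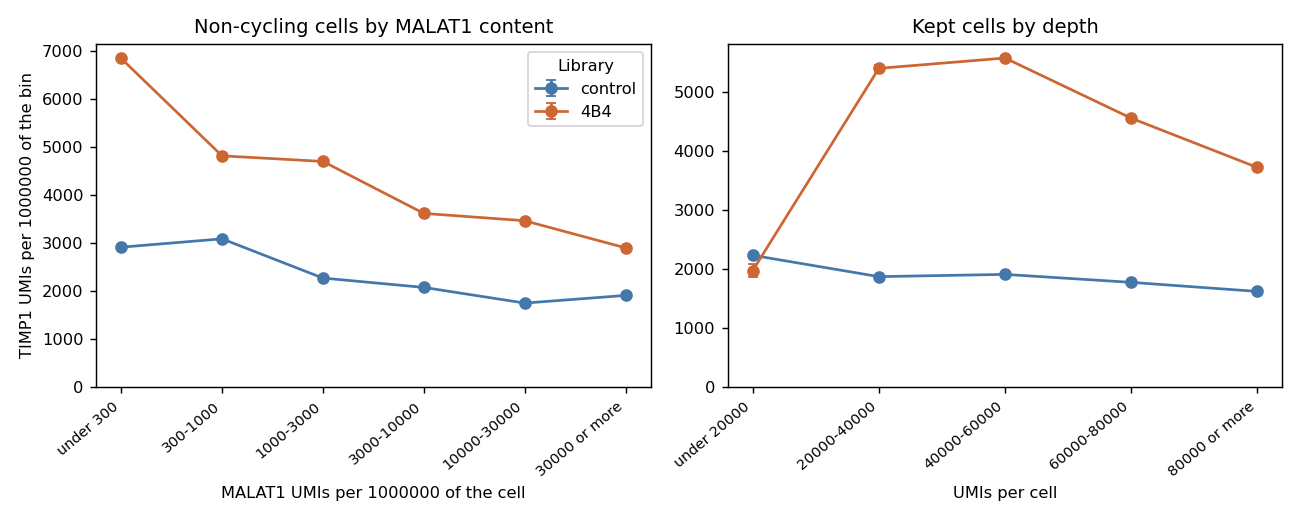
TIMP1 level (UMIs per 1000000 of the bin) in non-cycling cells by MALAT1 content (left) and in kept cells by UMIs per cell (right), for the control (blue) and 4B4 (orange) library; bars, mostly hidden by the points, are exact 95% counting intervals. The 4B4 library is higher in all 6 MALAT1 bins and in the 4 depth bins from 20000 UMIs up, and lower in the bin under 20000 (1971 against 2229).

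Among cycling cells, cut at the same MALAT1 bounds, TIMP1 was again lower where MALAT1 was high. Its log2 ratio of MALAT1-high to MALAT1-low cells was -0.27 (-0.32 to -0.23) in the control, over 76 and 537 cells, and -1.21 (-1.24 to -1.17) in the 4B4 library, over 39 and 53 cells. TIMP1 spread widely between cells, which these intervals leave out, and the 4B4 classes were small. In that comparison 7.1% of genes were lower by the 1.5-fold bound in the control and 15.8% in the 4B4 library. TIMP4 was split among 4B4 non-cycling cells, with 31 UMIs in MALAT1-low and 8 in MALAT1-high cells, a log2 ratio of -1.69 (-3.02 to -0.54); the control had 16 and 17 UMIs. TIMP3, on the contrary, had 5 and 12 UMIs in those 4B4 classes, with an interval that includes 0 (-0.08 to 3.38).

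Correlations between the members over single cells were near 0, as far as the low counts of TIMP2 and RECK, whose spread is mostly that of sampling, let them be read. At equal depth the Pearson correlation of TIMP1 with TIMP2 over log counts was 0.05 in 3099 control cells and 0.09 in 1311 4B4 cells, and that with RECK -0.07 and -0.09. For TIMP1, with its higher counts, the Spearman correlation with the number of genes detected at 17000 UMIs was -0.35 and -0.28, and with MALAT1 -0.15 and -0.28. Cells of a library share their preparation, and thinned counts of abundant genes compete for the same 17000 UMIs, so these values are descriptions. Of 2753 genes with at least 50 UPM in both libraries, those most like TIMP1 were MYL12B, a myosin regulatory light chain (mean r of the 2 libraries 0.41), LDHA, lactate dehydrogenase (0.41), PRDX1, a peroxiredoxin (0.37), GAPDH, a glycolytic enzyme (0.37) and HTRA1, a secreted serine protease (0.36). Those most opposed were PTPRG, a receptor phosphatase (-0.39), IGF2BP2, an RNA-binding protein (-0.31) and the long non-coding RNA ZFPM2-AS1 (-0.31). Over non-cycling cells alone 6 of these 8 genes were named again. For TIMP2 the highest were CALU (0.12) and ITGB1 (0.12), values too weak to describe a pattern, and the UMIs of TIMP3 were too few to give one.

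Genes that overlap the members were checked next, since a strand setting of the counting is not given in the sources used here and reads of overlapping genes might be shared. SYN1, the synapsin gene that encloses TIMP1 on the opposite strand, had 83 UMIs in the control and 389 in the 4B4 library, or 0.652 UPM (0.520 to 0.809) and 3.34 UPM (3.02 to 3.69). Its ratio of 5.12 (4.03 to 6.57) exceeded that of TIMP1, and it amounted to 0.351 UMIs per 1000 TIMP1 UMIs in the control and 0.800 in the 4B4 library. Both SYN1 levels lie below the floor of 5 UPM, so SYN1 is not among the measured genes. SYN3 (0.574 and 0.670 UPM), SYN2 (1.08 and 1.05 UPM) and CEP295NL (0.464 and 0.309 UPM) stayed below 2 UPM. SYN3 and SYN2 lie above TIMP3 and TIMP4 in level in both libraries, so with the strand setting unknown the few TIMP3 and TIMP4 UMIs are uncertain in origin.

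Among the targets of the family the measured genes had smaller ratios than TIMP1. Of 22 metalloproteinases 5 reached the floor of 5 UPM, and 1 was at least 1.5-fold higher in the 4B4 library and none lower, beside 2.1% and 5.82% of all measured genes. That gene was MMP14, the membrane collagenase, at 40.4 UPM (39.3 to 41.5) in the control and 61.8 (60.4 to 63.3) under 4B4, with a log2 ratio of 0.61. Among non-cycling cells its ratio was 0.54, below the bound. MMP17 had 0.34, MMP24 -0.09, MMP16 -0.01 and MMP2, the gelatinase that MMP14 activates with the help of TIMP2, -0.0054, at 39.6 and 39.5 UPM. The list's median was -0.0054, against -0.0089 over all measured genes.

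Set against their targets, the inhibitors shifted unequally. There were 46.0 TIMP1 UMIs per MMP14 UMI in the control (44.8 to 47.3) and 67.5 in the 4B4 library (66.0 to 69.1), and 47.0 and 105.8 per MMP2 UMI. TIMP2 went from 2.86 (2.77 to 2.95) to 2.09 (2.03 to 2.15) UMIs per MMP14 UMI, and RECK from 0.440 (0.419 to 0.462) to 0.246 (0.233 to 0.259). Relative to MMP14 transcripts, then, TIMP1 was higher and TIMP2 and RECK were lower in the 4B4 library. The number of TIMP1 UMIs per TIMP2 UMI was 16.1 and 32.3. These are ratios of 3′ UMI counts, with no term for gene length, and say nothing of protein.

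Of 22 sheddases and ADAMTS proteases, targets above all of TIMP3, 9 were measured and none passed the bound in either direction, with a median of -0.11; with 2.1% of all genes higher and 5.82% lower by it, a list of this length would hold few such genes. ADAMTS7 had 0.46, ADAMTS6 -0.45, ADAM9 -0.31 and ADAMTS3 -0.22. Of 19 genes whose products bind a TIMP or RECK, 12 were measured and none passed, beside the same shares of all genes, with a median of -0.10. CD63, the TIMP1 receptor on the cell surface, was abundant in both libraries at 959 and 895 UPM. ITGB1, the subunit that 4B4 binds and a partner of CD63, was at 642 and 780 UPM (log2 ratio 0.28). The largest ratios of the list were those of EFEMP1 (-0.53), a matrix protein that binds TIMP3, ANPEP (0.39), an aminopeptidase that RECK restrains, CD82 (-0.36), a tetraspanin, and LRP5 (0.35), a co-receptor of WNT signalling in which RECK takes part with WNT7 ligands.

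Of 34 genes known to induce TIMP1 or to belong to the pathways that do, 30 were measured, 3 were higher and 3 lower by the 1.5-fold bound, beside 2.1% and 5.82% of all genes, and the median was -0.03. The higher genes were IL1B, an inflammatory cytokine, at 43.5 and 98.9 UPM (log2 ratio 1.19), IL11 (0.66), a cytokine that signals through IL6ST, and TGFB1 (0.64). The lower genes were FOSL1, an AP-1 subunit, at 91.2 and 40.01 UPM (-1.19), TGFB2 (-1.06) and the ETS factor ETS2 (-0.59). The other FOS and JUN subunits ranged from FOSB (-0.47) to JUNB (0.25), with FOS, the most abundant at 512 and 530 UPM, at 0.05. Among non-cycling cells, where 1.57% of genes were higher and 3.39% lower by the bound, 3 inducers were higher and 4 lower: IL11 (1.11), IL1B (0.90) and TGFB1 (0.61), against TGFB2 (-1.17), FOSL1 (-0.74), RUNX2 (-0.64) and ATF3 (-0.64).

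Of 12 genes known to repress RECK, 11 were measured, with a median of 0.07. DNMT1, the maintenance DNA methyltransferase, was the 1 that passed the bound, at 102.2 UPM in the control and 66.5 in the 4B4 library (-0.62), and none was higher by it; of all genes 5.82% were lower and 2.1% higher. Among non-cycling cells DNMT1 was at 56.9 and 53.3 UPM, a log2 ratio of -0.10, which lies below the bound. HIF1A, the hypoxia factor, had 0.47.

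**Figure D5:**
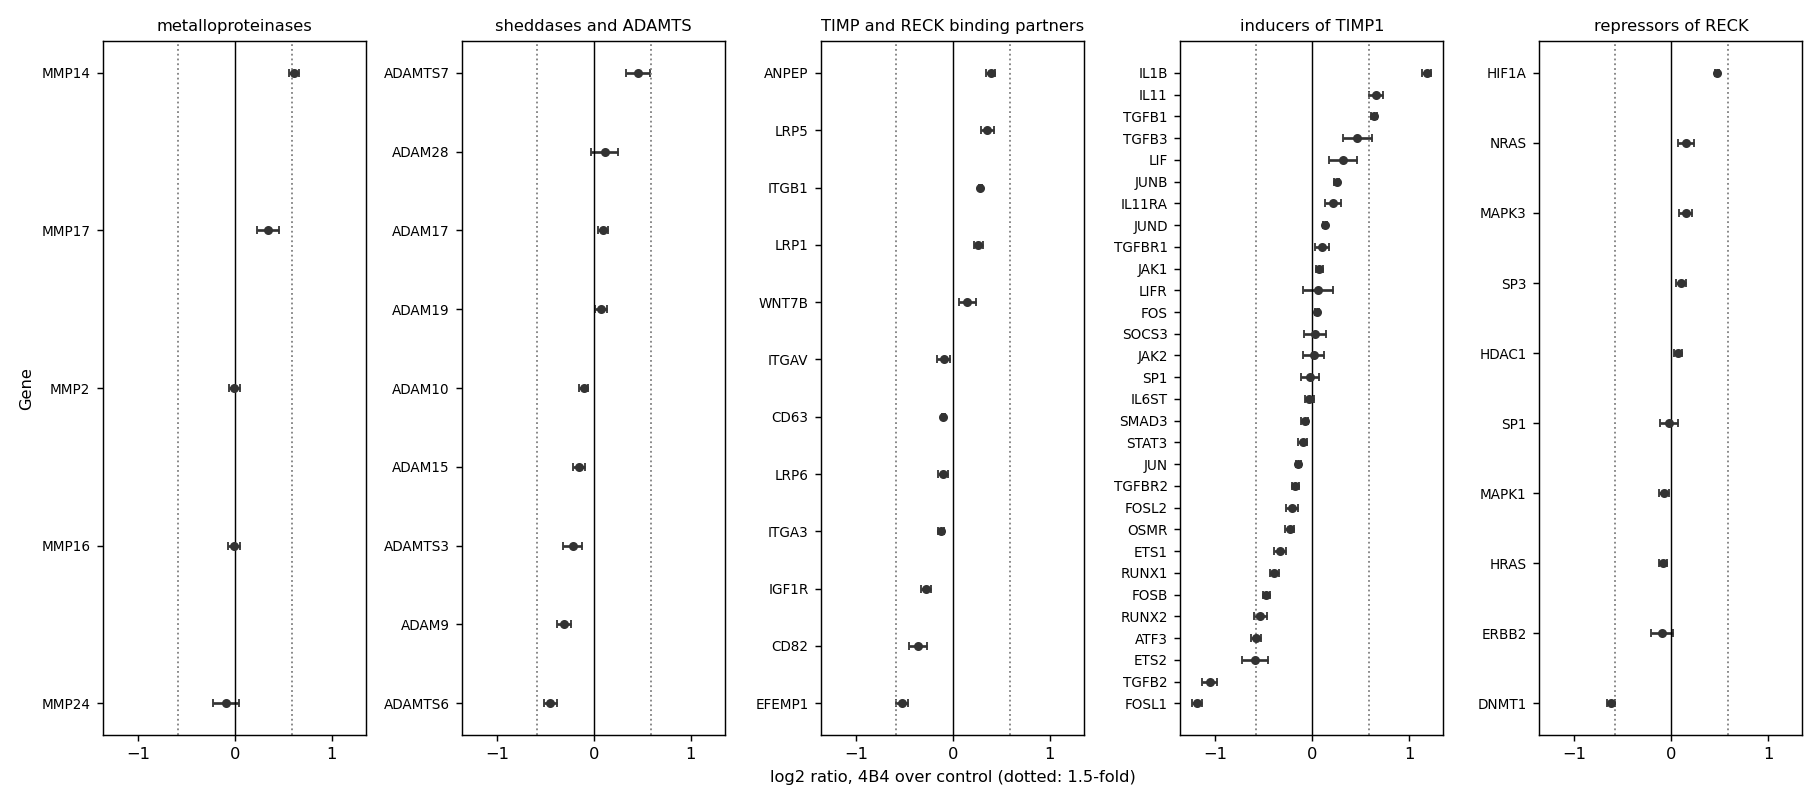
Log2 ratio of 4B4 over control for measured genes of 5 lists of targets, partners and regulators of the family, with exact 95% counting intervals as bars and dotted lines at a 1.5-fold ratio in either direction. The largest ratios are those of IL1B (1.19) and FOSL1 (-1.19) among the inducers of TIMP1, and MMP14 (0.61) is the metalloproteinase past the line.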

How the data were processed

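Single-cell 3′ RNA of 2 HT1080 cultures was measured. Raw UMI counts per gene and barcode were deposited, made by the authors with Cell Ranger 7.1.0, per the submitters' processing notes, which also name Seurat 5.0.1 without a role and the GRCh38 build. The sources used here do not give the gene annotation, the strand setting or the read depth. Total counts were 128375944 (control) and 119566832 (4B4). The members and gene lists were chosen with earlier results of these data known.

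Counts were summed over kept cells in Python 3.11.15 (numpy 2.4.6, scipy 1.17.1) and divided by the total. Log2 ratios carry no pseudocount. Levels have Poisson intervals, ratios Clopper-Pearson intervals of the conditional share. Cells were thinned to 17000 UMIs for phases (scanpy 1.11.5, 43 S and 54 G2M genes, scores above 0, both libraries together), detection and distributions, which left out 303 and 74 shallower cells; 510 and 92 cells lay within 0.05 of the phase bound. Doublets were not removed. The libraries shared 2 barcodes. A gene counted as higher or lower at 5 UPM or more in either library, a ratio of at least 1.5 and an interval on the same side of 1. GENCODE 29 matched 94.6% of gene IDs; 4 of 5 members were in the RefSeq promoter table. Genes named besides the members are overlapping genes, the likeness lists, and up to 4 measured genes of each list with the largest ratios; CD63, ITGB1, MMP2, MMP16, FOS, FOSB, JUNB, RUNX2, ATF3, IL11, TGFB1, ETS2 and the marker genes were added after their values were seen where that rule did not name them. A listed gene is not reported here by name and is left out of the plot of the lists, but counts in its list. Summing, interval and correlation steps were tested on simulated data. TMM (edgeR 4.0.16) and median-of-ratios factors (DESeq2 1.42.0) served as alternative scalings.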

Additional observations from a re-analysis of the deposited data

How the results depend on the processing

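No paired analysis was possible because each group has 1 library; leaving out a replicate was not possible either. The TIMP1 log2 ratio of 4B4 to control (1.17) was 1.14 with no cell filter, 1.17 with a stricter filter (2000 genes, 10% mitochondrial UMIs), 1.30 at 17000 UMIs, 1.55 over cells of 20000 to 60000 UMIs, 1.23 with each cell weighing the same, 1.13 with totals free of mitochondrial genes and MALAT1, 1.21 with TMM and 1.21 with median-of-ratios factors, 1.19 without the 1% of cells holding the most, and 1.02 over non-cycling cells. Alternatives added after seeing the data gave 1.28 without the 10% of cells with the largest TIMP1 share and 1.24, 0.64, 1.05, 0.80, 0.99 and 0.61 in the MALAT1 ranges. In the depth ranges, also added, the TIMP1 ratio changed sign below 20000 UMIs (-0.18) and was 1.53, 1.55, 1.36 and 1.20 above. Of ratios within a library, 4 added alternatives each gave 0.54 to 0.67 for RECK in MALAT1-high over MALAT1-low control cells (0.59), 0.99 to 1.27 in 4B4 cells (1.09), -1.19 to -1.08 for TIMP1 in cycling 4B4 cells (-1.21), and -0.69 to -0.55 for TIMP1 in S over non-cycling control cells (-0.60). The RECK control ratio fell short of the bound in the depth window (0.54), and the S ratio there (-0.55) and with equal weights (-0.58). TIMP2 (0.16) had 0.21 at 17000 UMIs, 0.26 over 20000 to 60000 UMIs, 0.22 with equal weights, 0.12 with the reduced total, and 0.21 with either scaling. TIMP1 in cycling over non-cycling control cells (-0.56) had -0.59 in the depth window and -0.66 under the stricter filter. In the 4B4 library (-0.21) it had -0.37 without cells near the phase bound, -0.67 in the window, -0.44 with equal weights and -0.20 under the stricter filter. For MALAT1-high over MALAT1-low cells, a split at the median, 1 pair of bounds for both libraries, the reduced total, the window, equal weights and the stricter filter gave -0.45, -0.57, -0.45, -0.64, -0.60 and -0.47 in the control and -0.63, -0.80, -0.73, -0.95, -0.94 and -0.80 in the 4B4 library. The cause of these shifts was not tested. Of 56 measured genes in the 4 lists of targets, partners and inducers, 7 passed a 1.5-fold bound, beside 2.1% of all genes higher and 5.82% lower. At a 2-fold bound, stricter by construction, 3 passed, and the share of all genes at that bound was not counted.

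RECK ratios ran from -0.32 to -0.07, those of TIMP3 from -0.88 to 3.95 and of TIMP4 from -0.89 to 0.90 over 10, 9 and 10 alternatives; for TIMP3 the setting without the 1% of cells gave no value. Some alternatives gave intervals above 0. For TIMP3 these included 3.95 (1.28 to 9.33) under the stricter filter, 2.83 (0.34 to 6.17) at 17000 UMIs and 2.24 (0.27 to 4.29) in the depth window. For TIMP4 they were 0.66 (0.11 to 1.22) under the stricter filter and 0.90 (0.27 to 1.56) without the 1% of cells holding the most. With each cell weighing the same the ratios were -0.88 and -0.25, and TIMP4 had -0.89 (-2.42 to 0.34) in the depth window. Of the 16 control TIMP3 UMIs, 9 came from 1 cell with under 17000 UMIs in total. Thinning, the depth window and the choice of non-cycling cells left that cell out, while equal weights kept it. Its part in the shifts of the TIMP3 ratio was not tested. Depth, and for TIMP3 this 1 cell, limit what can be said of TIMP3 and TIMP4. Counting intervals do not cover variation between cells or between cultures, and library, depth and treatment cannot be told apart.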
